A study of Mus musculus with 12 samples.

Results

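The genes described here act in amino acid breakdown and ammonia handling in the kidney cortex. There are 8 of them among the 27412 Ensembl gene IDs of the deposited table: Gpt, Gpt2, Got1, Got2, Glud1, Slc38a3, Hpd and Agxt2. They were chosen by name, with earlier results of these data known, and each ID occurred on 1 row. Their RNA was measured in male HIF2aM3 mice, which are on a C57BL/6 background and carry the γ-HIF2αM3 transgene, and in male wild-type (WT) C57BL/6 mice. HIF2αM3 is a mutant form of HIF2α that escapes the oxygen-dependent destruction of the normal protein, and the γ-glutamyl transferase (GGT) promoter that drives it is active in the proximal tubule. Each genotype had 3 animals, HIF2aM3 17-51, 17-53 and 17-56 and WT 1, 2 and 3, and both kidneys of each gave a library, 12 in all. The animals were untreated, and RNA came from a thin slice of outer cortex. The labels give no ages and do not say whether the HIF2aM3 animals are of 1 transgenic line, so a line's insertion site cannot be told apart from the transgene.

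Aminotransferases move the amino group of an amino acid onto 2-oxoglutarate and so make glutamate. Glutamate dehydrogenase releases that nitrogen as ammonia in the mitochondria, and the proximal tubule makes ammonia for acid excretion mainly from glutamine that it takes up from blood and filtrate. The carbon left over enters the citric acid cycle or glucose synthesis, for which the proximal tubule is the renal site. HIF2α acts by pairing with ARNT on DNA that holds a short core, ACGTG or GCGTG.

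The promoters of 2 of these genes that differ in direction between the genotypes are shown because the transgene encodes a DNA-binding factor. Both are the 250 bases before the RefSeq start on build GRCm38.p6, read in the direction of the gene, with capitals on the core (CACGC is GCGTG read on the other strand).
Got1, chr19:43524606-43524855, minus strand: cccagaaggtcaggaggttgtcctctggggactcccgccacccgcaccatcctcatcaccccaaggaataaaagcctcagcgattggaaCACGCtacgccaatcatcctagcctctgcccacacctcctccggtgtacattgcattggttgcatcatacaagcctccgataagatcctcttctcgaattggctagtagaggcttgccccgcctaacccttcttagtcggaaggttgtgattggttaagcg
Gpt2, chr8:85492326-85492575, plus strand: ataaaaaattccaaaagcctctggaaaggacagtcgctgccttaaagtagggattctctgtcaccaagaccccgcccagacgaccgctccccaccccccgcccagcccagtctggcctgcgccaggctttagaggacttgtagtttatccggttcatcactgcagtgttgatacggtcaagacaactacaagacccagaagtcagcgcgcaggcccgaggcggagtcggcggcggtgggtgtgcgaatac
The Got1 window held 1 match, starting 161 bases before the start, and the Gpt2 window held none. Of the 6 genes with a promoter in the RefSeq table, 3 held at least 1 match on either strand (Got1, Got2 and Glud1), and 38.6% of all 32851 promoters in that table did. A match is a run of letters in these windows, and binding was not measured.

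Library totals ran from 24032148 to 43499743 counts, apart from 4161829 in kidney 2 of HIF2aM3 17-51. Values below are reads of both kidneys summed per animal and given as CPM, that is, counts scaled to the library's size after TMM adjustment, with the SD over 3 animals; fold changes are HIF2aM3 over WT on the log2 scale with the standard error (SE) of the edgeR quasi-likelihood fit. A gene was called where its Benjamini-Hochberg adjusted p over all genes tested was under 0.05. Epas1, the gene of HIF2α, had 266 ± 16.6 CPM in HIF2aM3 animals and 205 ± 31.8 CPM in WT animals (log2 fold change 0.39 ± 0.11, adjusted p = 0.0881). The deposited gene rows do not separate transcripts of the transgene from those of the mouse gene. Lrp2, a marker of the proximal tubule, was abundant, at 2282 ± 25.6 CPM in HIF2aM3 animals and 2242 ± 150.4 CPM in WT animals. The liver enzymes Cps1 and Tat, which belong to the same pathways, averaged 0.00583 and 0.0102 CPM in HIF2aM3 animals and were at 0 in all WT animals. Other liver genes were expressed. The 11 hepatocyte markers present, these 2 among them, summed to 1817 to 2579 CPM in HIF2aM3 animals and 2207 to 2297 CPM in WT animals. Of these markers 8 were tested and 1 was called lower, against 1.82% of all genes tested.

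Of the 8 genes, Gpt and Got1 were called lower in HIF2aM3 animals and none was called higher. All 8 passed the filter on low counts. Because the 8 were chosen with earlier results of these data known, the shares of all genes given below are for scale and do not test the set. Over all 19564 genes tested, 3.75% were called, 1.93% higher and 1.82% lower. At an unadjusted edgeR p under 0.05, 1 of the 8 was higher (Gpt2) and 5 were lower, against 12.2% higher and 12.8% lower of all genes tested. DESeq2 called 1 of the 8 higher (Gpt2) and 3 lower (Gpt, Got1 and Slc38a3), against 5.61% higher and 5.17% lower of the 18903 genes to which it gave an adjusted p. The log2 fold change was negative for 7 of the 8, with a median of -0.21, against 9598 negative of 19564 and a median of 0.005 over all genes tested. For 6 of the 8, the values of the 3 HIF2aM3 animals lay outside the range of the 3 WT animals, as they did for 32.3% of all genes tested. They lay below it for 5 of the 8, as for 18.2% of all genes, and above it for 1, as for 14.1% of all genes. Gpt2 was the 1 gene of the 8 with a positive fold change, and Hpd and Agxt2 were the 2 whose animals overlapped. In these bulk samples, fewer cells of a type and less RNA per cell cannot be told apart.

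**Figure D1:**
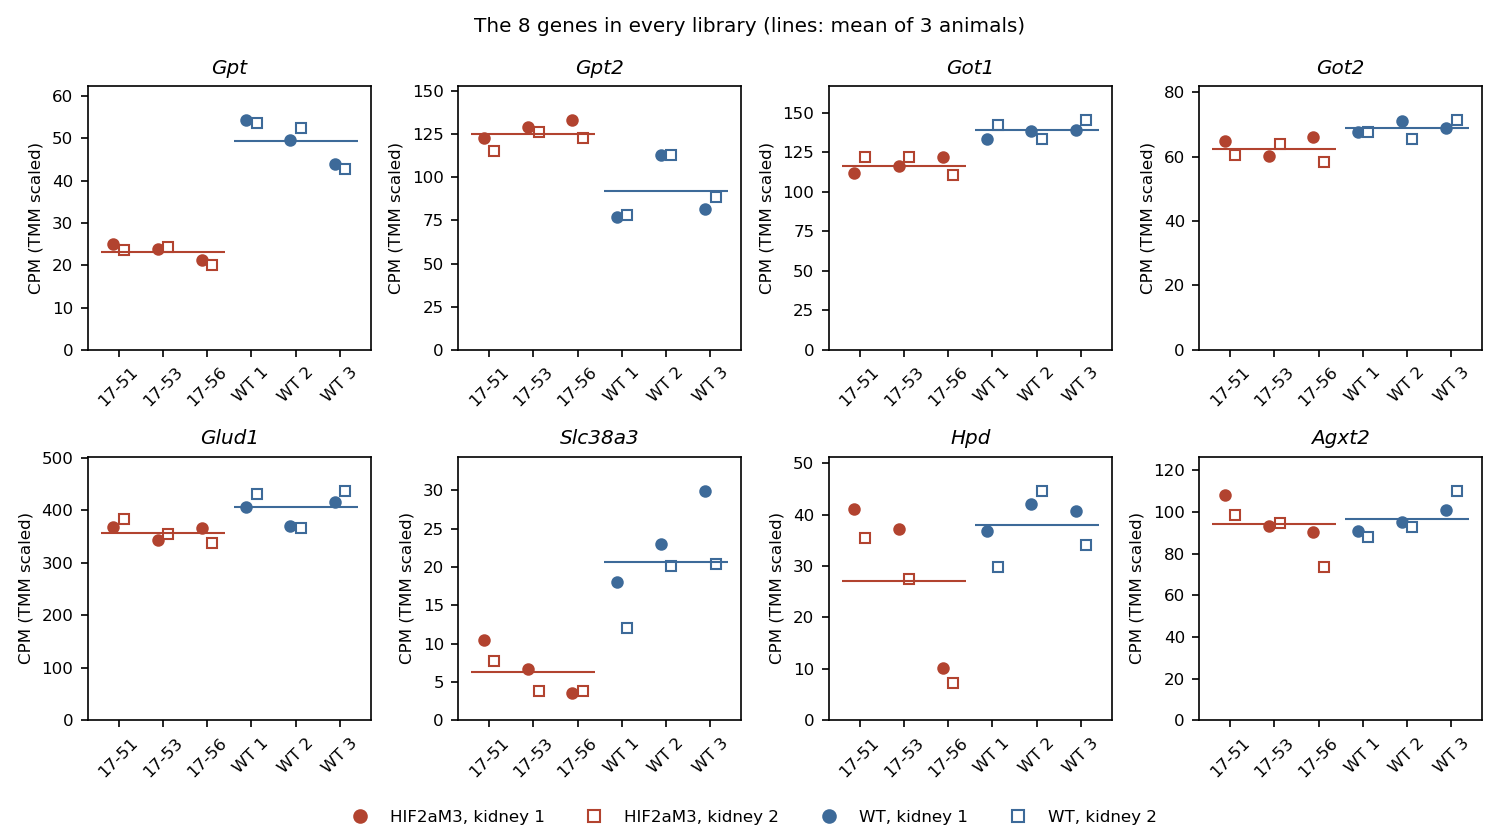
Each panel plots 1 gene, with CPM (TMM scaled) on the vertical axis and the 6 animals on the horizontal axis, HIF2aM3 in red and WT in blue. Filled circles are kidney 1, open squares are kidney 2 and lines are the mean of 3 animals. Gpt, Got1 and Slc38a3 sit below WT in every HIF2aM3 library, Gpt2 sits above, and Hpd is low in both kidneys of HIF2aM3 17-56.

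Gpt encodes the cytosolic alanine aminotransferase, which converts alanine to pyruvate. It had 24.6, 24.0 and 20.6 CPM in HIF2aM3 17-51, 17-53 and 17-56, against 53.9, 51.2 and 43.2 CPM in WT 1, 2 and 3. Every HIF2aM3 animal lay far below the lowest WT animal, and the genotypes stayed apart in single libraries, at no more than 24.9 CPM in HIF2aM3 kidneys and at least 42.8 CPM in WT kidneys. Gpt fell by 53%, with a log2 fold change of -1.09 ± 0.10 and an edgeR adjusted p of 0.00911. The call was lost without HIF2aM3 17-53, at a log2 fold change of -1.12 and an edgeR adjusted p of 0.0628, where only 11 genes of the whole table were called.

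Gpt2, the mitochondrial alanine aminotransferase, had 121, 127 and 128 CPM in HIF2aM3 17-51, 17-53 and 17-56, against 77.5, 114 and 85.2 CPM in WT 1, 2 and 3. All HIF2aM3 animals were above all WT animals, and WT 2 was nearest to them. Single libraries did not overlap either, with 115 to 133 CPM in HIF2aM3 kidneys and 76.9 to 113 CPM in WT kidneys. The log2 fold change of 0.45 ± 0.13 missed the threshold (edgeR adjusted p = 0.099). It passed without WT 2, at 0.62 with an edgeR adjusted p of 0.00812, and with DESeq2, at 0.45 with an adjusted p of 0.0101. A processed pseudogene that matches Gpt2 at 92.2% of 1328 aligned bases, Gm5049, was not analysed here.

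The balance between the alanine aminotransferases combines the opposite differences of Gpt and Gpt2, so its larger size follows from them and is no separate result. The log2 ratio of Gpt to Gpt2 reads, which needs no scaling between libraries, was -2.45 ± 0.17 in HIF2aM3 animals and -0.89 ± 0.33 in WT animals (SD, n = 3 each). The difference of -1.56 gave p = 0.1 in a two-sided exact permutation test, the smallest p that 3 against 3 animals allow. Per length, the share depended on the gene lengths used. On the authors' RPKM scale, whose lengths the sources used here do not give, Gpt made up 49.9, 48.1 and 44.2% of the summed Gpt and Gpt2 level in HIF2aM3 17-51, 17-53 and 17-56, against 77.3, 68.8 and 71.3% in WT 1, 2 and 3. With the GENCODE exon lengths, 2941 bases for Gpt and 5643 for Gpt2, an alternative added after the data were seen, the shares were 28.0, 26.6 and 23.6% in HIF2aM3 17-51, 17-53 and 17-56, against 57.1, 46.3 and 49.3% in WT 1, 2 and 3. On both scales every HIF2aM3 animal had a lower Gpt share than every WT animal, while which gene of the pair was the more abundant in WT animals depended on the lengths. The summed level was 25.0 ± 0.85 RPKM in HIF2aM3 animals and 34.3 ± 4.36 RPKM in WT animals. With the exon lengths it was 30.0 ± 0.57 CPM per kb in HIF2aM3 animals and 33.2 ± 4.04 CPM per kb in WT animals, where the animals overlapped.

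**Figure D2:**
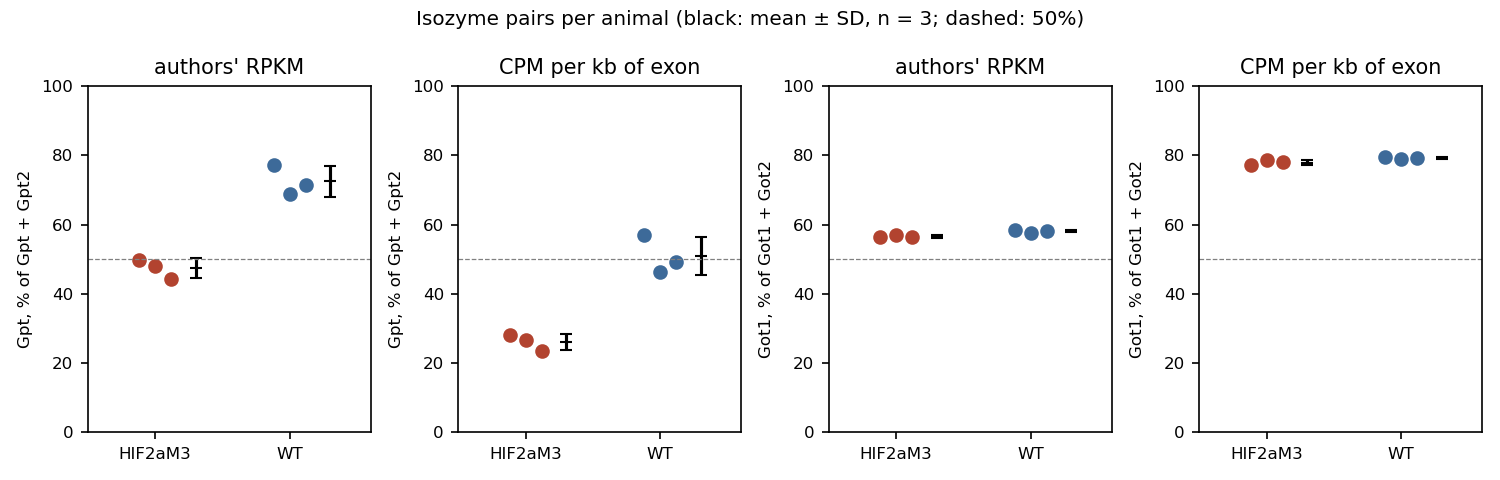
The panels plot, per animal, the share of the first gene in the summed level of an isozyme pair (%), by the authors' RPKM and by CPM per kb of GENCODE exon, for Gpt with Gpt2 on the left and Got1 with Got2 on the right, HIF2aM3 in red and WT in blue, with black bars for the mean ± SD of 3 animals. The Gpt share is 47.4 ± 2.91% in HIF2aM3 animals and 72.5 ± 4.37% in WT animals by RPKM, and 26.1 ± 2.23% in HIF2aM3 animals and 50.9 ± 5.61% in WT animals by exon length.

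Got1 encodes the cytosolic aspartate aminotransferase, which interconverts aspartate and oxaloacetate and is an arm of the malate-aspartate shuttle. It had 113, 118 and 116 CPM in HIF2aM3 17-51, 17-53 and 17-56, against 137, 137 and 142 CPM in WT 1, 2 and 3. The animals of each genotype lay close together and the genotypes did not overlap, so that a small difference passed the threshold (log2 fold change -0.25 ± 0.05, edgeR adjusted p = 0.0416). The call sat near the threshold: it was lost without each of WT 1, WT 3, 17-51, 17-53 and 17-56, with edgeR adjusted p values between 0.0891 and 0.138, and it was kept without WT 2. Leaving out a single library ended it for WT 1 kidney 2, WT 2 kidney 1, 17-51 kidney 1, 17-53 kidney 1 and 17-56 kidney 2, with edgeR adjusted p values between 0.0532 and 0.06. It was also lost from kidney 1 alone (0.0746), from kidney 2 alone (0.111) and with limma on RPKM (0.0692 to 0.0716). The log2 fold change stayed between -0.28 and -0.17 in every alternative run.

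Got2, the mitochondrial aspartate aminotransferase, had 63.8, 61.5 and 62.2 CPM in HIF2aM3 17-51, 17-53 and 17-56, against 67.6, 69.3 and 70.2 CPM in WT 1, 2 and 3. All HIF2aM3 animals were lower, with a log2 fold change of -0.13 ± 0.05 that was not called (edgeR adjusted p = 0.138). Single libraries overlapped, at up to 66 CPM in HIF2aM3 kidneys and from 65.6 CPM in WT kidneys. The Got2 level is uncertain, because near-identical copies of its sequence hold more reads than Got2 itself. The processed pseudogene Got2-ps1, 99.1% identical over 1293 bases, had 31918 reads in the 12 libraries, against 23444 for Got2. A long noncoding RNA gene at the same place, Gm10874, 98.8% identical over 1637 bases, had 29838 reads. The sources used here do not say how reads that match several places were counted. Got2-ps1 had a log2 fold change of -0.11 ± 0.05 (edgeR adjusted p = 0.247) and Gm10874 one of -0.10 ± 0.05 (edgeR adjusted p = 0.266). All 3 rows differed in the same direction and none was called. The rows may hold the same reads, so their like direction is not independent. Got2 and Got2-ps1 together had 148 ± 2.01 CPM in HIF2aM3 animals and 162 ± 4.62 CPM in WT animals.

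The log2 ratio of Got1 to Got2 reads was 0.89 ± 0.06 in HIF2aM3 animals and 1.01 ± 0.02 in WT animals, a difference of -0.12 with no overlap and the smallest p allowed (exact permutation test, p = 0.1). With the Got2-ps1 reads added to Got2, an alternative chosen after the data were seen, the ratios were -0.36 ± 0.05 and -0.23 ± 0.02 in HIF2aM3 and WT animals, a difference of -0.13. The adding turned the sign of the ratio in both genotypes and left the difference between them nearly the same. In RPKM, Got1 and Got2 together were at 39.5 ± 0.173 in HIF2aM3 animals and 44.3 ± 0.95 in WT animals.

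Glud1 encodes glutamate dehydrogenase. It had 368, 347 and 352 CPM in HIF2aM3 17-51, 17-53 and 17-56, against 419, 372 and 427 CPM in WT 1, 2 and 3. The HIF2aM3 animals were all lower, but HIF2aM3 17-51 came within a few CPM of WT 2. Single libraries overlapped, at up to 384 CPM in HIF2aM3 kidneys and from 367 CPM in WT kidneys. The log2 fold change was -0.18 ± 0.07 (edgeR adjusted p = 0.183) and was not called. It was called in 1 alternative, the fit that takes the 12 libraries as replicates (-0.17, edgeR adjusted p = 0.0282). The pseudogene Glud-ps, 97.6% identical over 656 bases, was not analysed here.

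Slc38a3 encodes SNAT3, a glutamine transporter of the basolateral membrane of the proximal tubule. It had 10.1, 5.22 and 3.67 CPM in HIF2aM3 17-51, 17-53 and 17-56, against 14.9, 21.9 and 24.8 CPM in WT 1, 2 and 3, from 990 reads in HIF2aM3 animals and 3801 reads in WT animals. The genotypes did not overlap, also not in single libraries, but values spread widely within each genotype. This was the largest of the 8 log2 fold changes in size, -1.73 ± 0.37, and with that spread it missed the threshold (edgeR adjusted p = 0.058). It was called with DESeq2 (-1.69, adjusted p = 0.00992), from kidney 2 alone (edgeR adjusted p = 0.034), with a minimum mean of 1 CPM (-1.74, edgeR adjusted p = 0.0497) and without the kidney 1 library of HIF2aM3 17-51 (-2.09, edgeR adjusted p = 0.0172).

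Hpd encodes 4-hydroxyphenylpyruvate dioxygenase, which acts early in tyrosine breakdown. It had 40.1, 32.2 and 8.80 CPM in HIF2aM3 17-51, 17-53 and 17-56, against 33.3, 43.5 and 37.1 CPM in WT 1, 2 and 3. HIF2aM3 17-56 alone was low, in both kidneys, at 10.2 and 7.22 CPM, while the other HIF2aM3 animals lay in or near the WT range. The log2 fold change was -0.49 ± 0.48 (edgeR adjusted p = 0.573), and without HIF2aM3 17-56 it was -0.06. Agxt2, a mitochondrial aminotransferase that breaks down methylarginines and β-aminoisobutyrate, had 106, 93.6 and 82.5 CPM in HIF2aM3 17-51, 17-53 and 17-56, against 89.4, 94.8 and 106 CPM in WT 1, 2 and 3. The genotypes overlapped throughout, with a log2 fold change of -0.03 ± 0.10 (edgeR adjusted p = 0.896). An annotated gene that shares exons with Agxt2 on the same strand, Gm21973, was not analysed here.

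**Figure D3:**
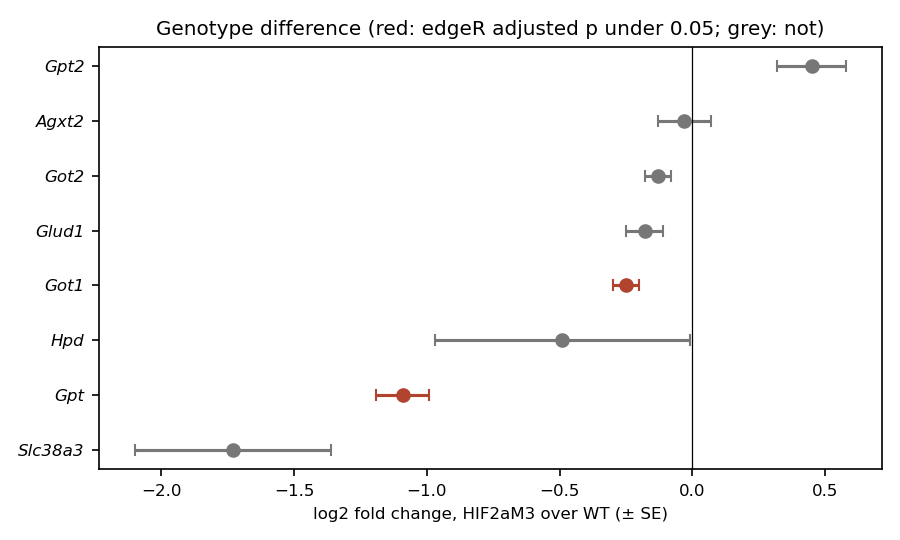
The horizontal axis is the log2 fold change, HIF2aM3 over WT, of each of the 8 genes, with bars of ± 1 SE, red where the edgeR adjusted p was under 0.05. Gpt at -1.09 ± 0.10 and Got1 at -0.25 ± 0.05 have narrow bars, while Slc38a3 at -1.73 ± 0.37 and Hpd at -0.49 ± 0.48 have the widest.

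The authors' deposited table gives log2 fold changes of the same sign for the 8 genes, HIF2aM3 over WT, with -1.07 for Gpt, 0.47 for Gpt2 and -1.73 for Slc38a3. The q-values from a test over the libraries in the authors' deposited table were 0.000133 for Gpt, 0.0266 for Gpt2, 0.00416 for Got1, 0.0286 for Got2, 0.0529 for Glud1, 0.00534 for Slc38a3, 0.333 for Hpd and 0.882 for Agxt2. The authors' deposited table also holds q-values of a Fisher test, which were under 0.05 for all 8 genes and highest for Agxt2 (0.0251). The edgeR fit of the 12 libraries as replicates called Gpt, Gpt2, Got1, Got2, Glud1 and Slc38a3, so that Gpt2, Got2, Glud1 and Slc38a3 passed in that fit and not in the edgeR fit by animal.

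Per length, on the authors' RPKM scale, the order of levels in HIF2aM3 animals was Glud1 (55.7 RPKM), Got1 (22.3), Got2 (17.2), Agxt2 (14.0), Gpt2 (13.1), Gpt (11.8), Hpd (5.63) and Slc38a3 (0.971 RPKM). Agxt2 and Gpt2 overlapped between animals, and the other neighbours in that order did not. In WT animals the order was Glud1 (61.4 RPKM), Got1 (25.7), Gpt (24.8), Got2 (18.6), Agxt2 (14.2), Gpt2 (9.48), Hpd (7.94) and Slc38a3 (3.22 RPKM), where Got1 overlapped Gpt and Gpt2 overlapped Hpd. The middle of this order is uncertain, because CPM per kb of GENCODE exon was between 0.67 times the RPKM, for Gpt, and 2.25 times the RPKM, for Hpd. On the exon scale, Glud1 (84.5 CPM per kb in HIF2aM3 animals, 96.4 in WT animals) and Got1 (45.6 in HIF2aM3 animals, 54.6 in WT animals) again stood highest and Slc38a3 (1.20 in HIF2aM3 animals, 3.90 in WT animals) lowest in both genotypes. Agxt2 came after Got1 on that scale, at 29.7 CPM per kb in HIF2aM3 animals and 30.5 in WT animals, and in WT animals Hpd, Gpt, Gpt2 and Got2 followed with overlap between neighbours. The place of Got2 is also uncertain because of its copies.

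The labels give the kidneys of an animal as kidney 1 and kidney 2, without a side. Comparing kidney 2 with kidney 1 within animals, edgeR called 17 genes of 18164 (0.0936%) and none of the 8, while 1556 genes of the table had an unadjusted p under 0.05. Slc38a3 differed most, with a log2 difference of -0.44 ± 0.09, kidney 2 over kidney 1, lower in kidney 2 in 5 of 6 animals (edgeR unadjusted p = 0.000368, adjusted p = 0.148). Hpd was at -0.25 ± 0.07, also lower in kidney 2 in 5 of 6 animals (edgeR adjusted p = 0.254). Slc38a3 was called without HIF2aM3 17-56 and with no count filter, Hpd with DESeq2, and both without WT 2. The genotype by kidney term called no gene of the table with edgeR or DESeq2, with an unadjusted edgeR p under 0.05 for 534 genes and for none of the 8.

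Wider lists of amino acid genes were set beside these 8. The 9 lists hold 127 different genes, the 8 among them, of which 117 were tested. In HIF2aM3 animals 5 of the 117 were called lower (Gpt, Got1, Rhcg, Prodh and Nags) and none higher with edgeR, against 3.75% called over all genes. DESeq2 called 5 of them higher and 14 lower, against 5.61% and 5.17% of all genes it gave an adjusted p. At an unadjusted edgeR p under 0.05, 11 were higher and 28 lower, against 12.2% and 12.8% of all genes tested. The median log2 fold change of the 117 was -0.06 and 72 were negative. The lists were chosen with earlier results of these data known.

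Among 13 aminotransferases tested, Gpt and Got1 were called lower and 11 were not called, with a median log2 fold change of -0.06. Their summed level was 1540 to 1567 CPM in HIF2aM3 animals and 1552 to 1594 CPM in WT animals. Psat1, an aminotransferase of serine synthesis named here after its values were seen, had 21.8, 22.6 and 24.4 CPM in HIF2aM3 17-51, 17-53 and 17-56, against 51.0, 29.6 and 58.9 CPM in WT 1, 2 and 3 (log2 fold change -1.01 ± 0.24, edgeR adjusted p = 0.0685). In the malate-aspartate shuttle, Got1 was called lower of 9 tested, against 1.82% of all genes tested, and the median was -0.13.

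Of 15 glutamine and ammonia genes, with a median log2 fold change of -0.14, 1 was called lower, against 1.82% of all genes. It was Rhcg, an ammonia transporter of the distal nephron and collecting duct, at 74.4 ± 13.7 CPM in HIF2aM3 animals and 123 ± 9.62 CPM in WT animals (log2 fold change -0.71 ± 0.14, edgeR adjusted p = 0.0428). Of 8 collecting duct markers, 3 were called lower as well (Aqp3, Avpr2 and Foxi1), against 1.82% of all genes tested. The 8 had a median log2 fold change of -0.24, with 7 negative and 1 positive, and none was at 0. The markers summed to 352 to 439.7 CPM in HIF2aM3 animals and 489 to 506 CPM in WT animals. Their part in the Rhcg result was not tested. The Rhcg call was kept without HIF2aM3 17-56 and lost without each other animal, with edgeR adjusted p values of 0.0571 to 0.109, and it was also lost without the library of WT 1 kidney 2 (0.0514) or of 17-53 kidney 1 (0.0663). It was lost from kidney 2 alone (0.102) and with limma on RPKM (0.0718 to 0.0766), and with library size scaling it came to 0.05. Pck1, the cytosolic phosphoenolpyruvate carboxykinase that leads glutamine carbon to glucose, was named after its values were seen. It had 1010, 534 and 446 CPM in HIF2aM3 17-51, 17-53 and 17-56, against 2783, 1517 and 1442 CPM in WT 1, 2 and 3. The genotypes did not overlap, but 1 animal of each lay far above the others of its genotype, and the log2 fold change of -1.52 ± 0.39 was not called (edgeR adjusted p = 0.0806). The glutamine transporter gene Slc1a5, also named after its values were seen, was at -0.36 ± 0.08 and was not called (edgeR adjusted p = 0.0589).

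Among 20 genes of glycine, serine, threonine and proline breakdown, 1 was called lower, against 1.82% of all genes tested, and the median was -0.18. Prodh, the first enzyme of proline breakdown, had 233 ± 10.6 CPM in HIF2aM3 animals and 313 ± 3.75 CPM in WT animals (log2 fold change -0.41 ± 0.06, edgeR adjusted p = 0.0211). It kept its call in all 12 fits that left out a library and without WT 2 or WT 3, and lost it without WT 1, 17-51, 17-53 or 17-56, with edgeR adjusted p values of 0.0522 to 0.0796. Prodh was also lost with limma on RPKM plus 5 (adjusted p = 0.0518). Gldc, the glycine decarboxylase, named after its values were seen, was at -0.73 ± 0.16 and was not called (edgeR adjusted p = 0.058). Of 9 urea cycle and arginine genes tested, 1 was called lower, against 1.82% of all genes tested. It was Nags, whose product makes the activator of the first urea cycle enzyme. Nags had 0.50 ± 0.0911 CPM in HIF2aM3 animals and 1.22 ± 0.0252 CPM in WT animals (log2 fold change -1.24 ± 0.19, edgeR adjusted p = 0.0265). Nags rests on 92 reads in HIF2aM3 animals and 220 in WT animals, shares exon positions with the antisense gene Gm11586, and kept its call without WT 2 but lost it without each other animal, with edgeR adjusted p values of 0.0662 to 0.081. It was lost from kidney 2 alone (edgeR adjusted p = 0.116) and with limma on RPKM plus 0.1, 1 and 5 (log2 fold changes of -0.57, -0.11 and -0.02), and it was not tested at a mean of at least 1 CPM.

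None of the other lists had a gene called by edgeR. The 7 genes of phenylalanine and tyrosine breakdown had a median of -0.02. The 22 genes of branched-chain amino acid breakdown had a median of 0.02, led by Bckdha, a subunit of the branched-chain ketoacid dehydrogenase, at -0.19 ± 0.05 (edgeR adjusted p = 0.088). The 15 genes of lysine, tryptophan and histidine breakdown had a median of 0.07, led by Dhtkd1, a subunit of the 2-oxoadipate dehydrogenase, at 0.34 ± 0.08 (edgeR adjusted p = 0.0692). The 12 genes of sulfur amino acid breakdown had a median of -0.13, led by Ahcy, the adenosylhomocysteinase, at -0.21 ± 0.07 (edgeR adjusted p = 0.105). At an unadjusted edgeR p under 0.05 there were 0, 3, 5 and 4 genes in these lists, in the order given, and DESeq2 called 0, 1, 1 and 1; the shares of all genes are those given above.

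**Figure D4:**
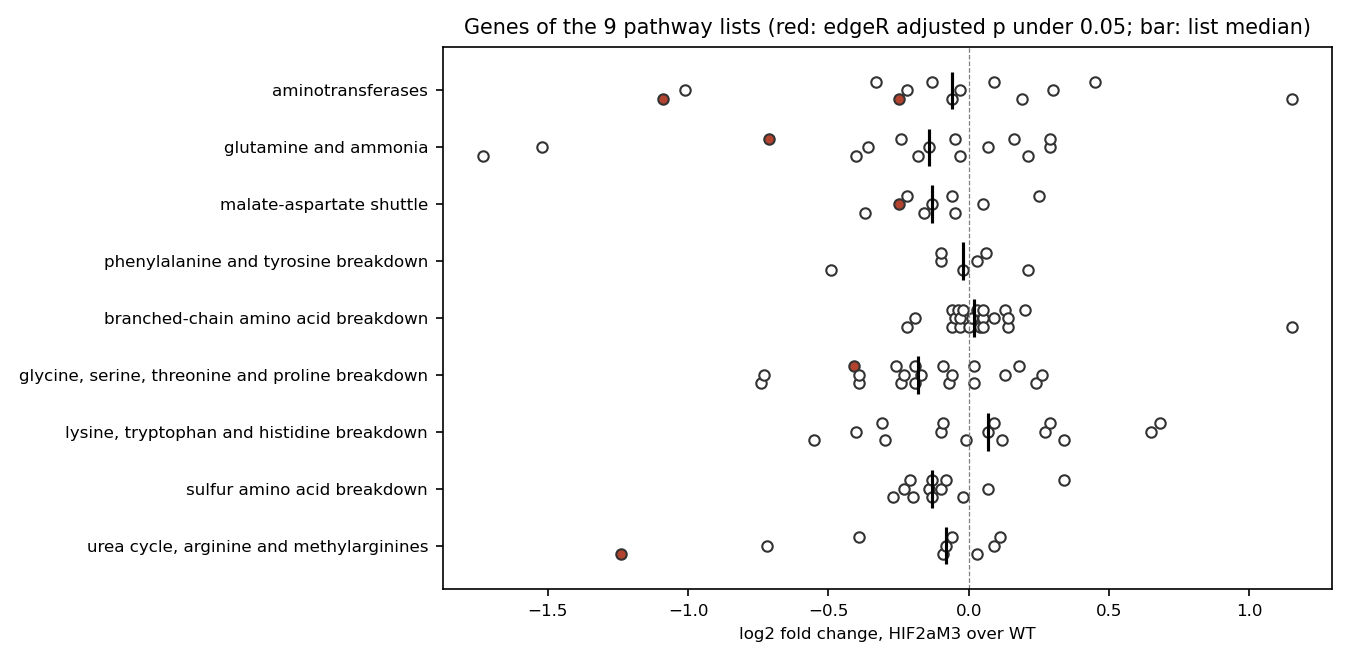
Each circle is a gene of 1 of the 9 lists, placed by its log2 fold change, HIF2aM3 over WT, with red for an edgeR adjusted p under 0.05 and a black bar at the list median. List medians lie between -0.18 and 0.07, and all red circles lie below 0; Got1 appears in both the aminotransferase and the shuttle list.

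Markers of the cells a cortex slice can hold were summed per animal. Over all genes tested, 1.93% were called higher and 1.82% lower. Endothelial markers summed to 467 to 477 CPM in HIF2aM3 animals and 289 to 408 CPM in WT animals, with Kdr and Emcn of 7 called higher. Leukocyte markers summed to 130.2 to 169 CPM in HIF2aM3 animals and 72.1 to 146 CPM in WT animals, with Csf1r of 8 called higher. The 16 proximal tubule markers summed to 17084 to 19337 CPM in HIF2aM3 animals and 19027 to 20871 CPM in WT animals, with Slc22a6 called lower and Slc5a12 called higher. The median log2 fold change of these 16 was -0.04, with 9 negative and 7 positive. Slc34a1, the most abundant of them, had 6348 CPM in HIF2aM3 animals and 7397 CPM in WT animals. The 8 thick limb and distal tubule markers summed to 3177 to 3503 CPM in HIF2aM3 animals and 3667 to 4740 CPM in WT animals, with 7 of 8 negative, a median log2 fold change of -0.26 and no call by edgeR. No marker of these lists was at 0 in all animals. Their part in the Gpt and Got1 results was not tested.

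The genes with profiles nearest to Gpt over the 6 animals were Noct, Nefm and Acnat2, by the root mean square difference of centred log2 CPM among 15283 genes (0.131, 0.132 and 0.134). Acnat2, an acyltransferase gene, had 44.2 ± 5.88 CPM in HIF2aM3 animals and 89.8 ± 9.16 CPM in WT animals (log2 fold change -1.01 ± 0.11, edgeR adjusted p = 0.0143). The nearest to Got1 were D8Ertd738e, Gm11964 and Atg4d (0.020, 0.025 and 0.026), of which D8Ertd738e had 54.2 ± 1.76 CPM in HIF2aM3 animals and 65.9 ± 1.54 CPM in WT animals. Likeness over 6 animals in 2 groups follows the genotype difference of these genes, and it says nothing of shared control.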

How the data were processed

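RNA of 12 kidney cortex libraries, 2 kidneys from each of 3 HIF2aM3 and 3 WT mice, was prepared with an Illumina TruSeq kit, per the labels' protocols, and mm9 was the build, per the notes of the submitters on processing. The sources used here name no aligner, counter or annotation and do not say whether strand was used. The deposited read counts per gene are raw, per the file headers. The authors also deposited RPKM values and their log2 values, a log2 fold change and q-values from their own comparison, used here only where named. Gene symbols matched 24630 of 27412 IDs through GENCODE M21, and the 2782 without a symbol held 1.18% of all counts.

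Counts were summed per animal and tested with edgeR 4.0.16 in R 4.3.3 (filterByExpr, TMM factors, robust quasi-likelihood, two-sided). In the main fit the animal is the replicate, and its p-values weigh the genotype difference against the spread between animals. The kidneys of an animal are paired by the labels and were compared with the animal as a block. The p-values for the kidneys therefore rest on differences within animals. Every pair of libraries differed by more than sampling noise (lowest chi-square per degree of freedom 1.77). The members and lists were chosen with earlier results of these data known. Named genes are the 8 members, Epas1, up to 6 called genes of each list or the gene with the smallest p, and the 3 nearest profiles of each called member among genes with a mean of at least 1 CPM, with 0.01 CPM added before the log2; others are named as chosen after their values were seen. The gene that this rule takes from the phenylalanine and tyrosine list is not reported here. Copies were searched with blastn among annotated transcripts. Alternatives used RLE factors, library size alone, other filters, DESeq2 1.42.0, single libraries or kidneys, limma 3.58.1 on RPKM with pseudocounts of 0.1, 1 and 5, and left out each animal and library. Levels per kb of GENCODE exon length and the Got2-ps1 sum were chosen with the data already seen. The tests were also run on simulated counts, with the same dispersion for every gene and no effect shared by the kidneys of an animal. That run checks the calculation and does not cover the wider spread of genes such as Slc38a3 and Hpd.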

Additional observations from a re-analysis of the deposited data

Results flagged for a closer look

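The difference between the kidneys in Gpt2 pointed in opposite directions in the genotypes. Kidney 2 was below kidney 1 in all 3 HIF2aM3 animals and above it in all 3 WT animals. The WT gaps were uneven, with 81.6 CPM in kidney 1 and 88.5 CPM in kidney 2 of WT 3. In WT 2 both kidneys were at 113 CPM after rounding. The genotype by kidney term was -0.12 ± 0.06 on the log2 scale (edgeR unadjusted p = 0.0679, adjusted p = 1), so the difference did not pass the threshold.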

How the results depend on the processing

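The fall of Gpt kept its direction in every alternative, with log2 fold changes from -1.18 to -0.82, and was called in 28 of 29. Got1 was called in 14 of 29, Slc38a3 in 5, Gpt2 in 3, Got2 and Glud1 in 1 each and Hpd and Agxt2 in none. Calls in the whole table numbered 733, against 2038 with DESeq2, 4830 with 12 libraries as replicates, 337 from kidney 2 alone and 114, 140 and 67 with limma on RPKM plus 1, 0.1 and 5. Of the 8 genes, DESeq2 called 4, the 12 libraries 6, and kidney 1 alone and limma with each of its 3 pseudocounts 1. With 1 animal left out, 11 (without HIF2aM3 17-53) to 1549 (without WT 2) genes and 0 to 3 of the 8 were called, and with 1 library left out 479 to 1074 genes and 1 or 2 of the 8. Scaling by library size alone moved the median log2 fold change of all genes to 0.03 and called 376 genes higher and 249 lower, and with no count filter the numbers were 439 and 564. For kidney 2 against kidney 1, 1 of the 8 was called with no count filter, 1 with DESeq2 and 0 to 2 with an animal left out. The log2 fold change of Agxt2 turned positive from kidney 1 alone (0.03), without WT 3 (0.04), without HIF2aM3 17-56 (0.06) and without the kidney 2 library of that animal (0.00), and was -0.13 at its lowest, without HIF2aM3 17-51 and from kidney 2 alone. The cause of these changes was not tested, also where an animal was left out and fewer samples remained. No paired analysis was possible because the genotypes share no replicate numbers. The low depth of 1 library of HIF2aM3 17-51 limits what that kidney adds to the sum.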

Other observations

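HIF2aM3 17-56 was the animal with the lowest level in several genes of amino acid breakdown besides Hpd. After the values were seen, the genes of the lists nearest to Hpd were Ftcd (first of 15283), an enzyme of histidine breakdown, Ido2 (second), an enzyme of tryptophan breakdown, and Aspg (sixth), an asparaginase. Ftcd had 32.7, 25.2 and 10.3 CPM in HIF2aM3 17-51, 17-53 and 17-56, against 29.9, 28.7 and 31.5 CPM in WT 1, 2 and 3. Ido2 had 9.56, 6.42 and 2.94 CPM in HIF2aM3 17-51, 17-53 and 17-56, against 9.71, 8.15 and 9.51 CPM in WT 1, 2 and 3. Aspg had 46.6, 28.3 and 17.4 CPM in HIF2aM3 17-51, 17-53 and 17-56, against 42.3, 37.5 and 42.3 CPM in WT 1, 2 and 3. None of these was called between the genotypes (edgeR adjusted p = 0.539 for Ftcd, 0.401 for Ido2 and 0.477 for Aspg). HIF2aM3 17-56 was the lowest of the 6 animals in 48 of the 117 list genes tested (41%), against 23.9% of all genes tested. Its summed markers were also the lowest of the 6 animals for the proximal tubule, at 17084 CPM, for the thick limb and distal tubule, at 3177 CPM, and for the collecting duct, at 352 CPM. They were the highest for leukocytes, at 169 CPM, for fibroblasts and smooth muscle, at 288 CPM, and for hepatocytes, at 2579 CPM. Single proximal tubule markers went both ways in HIF2aM3 17-56. Slc34a1 (5666 CPM) and Miox (1037 CPM), among others, were the lowest of the 6 animals, while Cubn (632 CPM) and Slc5a12 (518 CPM) were the highest. The part of the marker sums in this pattern was not tested.

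The profile nearest to Slc38a3 was that of Mogat2, at a root mean square difference of 0.307. Mogat2 had 7.85, 5.35 and 2.78 CPM in HIF2aM3 17-51, 17-53 and 17-56, against 9.27, 12.5 and 13.8 CPM in WT 1, 2 and 3, and was not called (edgeR adjusted p = 0.102). The profile nearest to Gpt2 was that of Srgn, at 21.1 ± 0.938 CPM in HIF2aM3 animals and 15.9 ± 3.54 CPM in WT animals. All of these genes were chosen after their values were seen.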
